A study of Sus scrofa and Bos taurus with 31 samples.

Results

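The albumin gene cluster was examined through 4 genes of 20674 protein-coding genes in the pig annotation, ALB (albumin), AFP (alpha-fetoprotein), AFM (afamin) and GC (vitamin D binding protein). The genes were taken by name, as the albumin family of plasma carrier proteins, and each was read over its annotated span plus 10 kb on either side. They and the gene lists used below were chosen with earlier results of these data known, the liver signal at ALB among them. Their p-values and counts describe these data and are not independent evidence. Accessible chromatin had been profiled by ATAC-seq, where a transposase inserts sequencing adapters into nucleosome-free DNA, in nuclei of 8 tissues from 2 pigs, P348 and P350, which gave 16 libraries with 1 peak list each. The pigs were adult castrated male Yorkshire littermates, and the groups were the tissues, each with 1 library from each pig, which were liver, lung, spleen, adipose, skeletal muscle and, from the brain, cerebellum, cerebral cortex and hypothalamus. The cattle libraries of the same series were not used here.

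Albumin is the most abundant protein of blood plasma, and it carries fatty acids, bilirubin, hormones and drugs. Alpha-fetoprotein is its fetal counterpart, made by the yolk sac and fetal liver and silenced in the liver after birth. Afamin binds vitamin E, and the GC product binds vitamin D and actin. The genes arose by duplication, are secreted products of hepatocytes, and ALB is a classic example of a gene kept active in liver by HNF1, C/EBP, FOXA and HNF4 factors bound to its promoter and to distal enhancers.

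All 4 genes lay on chromosome 8 of Sscrofa11.1. ALB (chr8:69643427-69663152), AFP (chr8:69677690-69698864) and AFM (chr8:69706823-69728269) followed each other on the plus strand within 84.8 kb, with 14537 bp between ALB and AFP and 7958 bp between AFP and AFM. GC (chr8:68326293-68360262) lay on the minus strand, 1283 kb away from ALB. The windows of ALB and AFP shared 5.46 kb and those of AFP and AFM shared 12.0 kb, so a peak in a shared stretch counted for both genes, and the 3 values are not independent.

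The promoters are shown because all 4 held the same short word. Each is the 250 bases upstream of the annotated gene start, read in the direction of transcription from the RefSeq assembly Sscrofa11.1, at chr8:69643177-69643426 for ALB, chr8:69677440-69677689 for AFP, chr8:69706573-69706822 for AFM, all on the plus strand, and chr8:68360263-68360512 on the minus strand for GC. Capitals mark matches on either strand to GTTAAT (the core of the HNF1 site), TTGCNNAA (C/EBP), TATAAA (the core promoter element bound by TBP) and CCAAT (the box bound by NF-Y).
ALB promoter: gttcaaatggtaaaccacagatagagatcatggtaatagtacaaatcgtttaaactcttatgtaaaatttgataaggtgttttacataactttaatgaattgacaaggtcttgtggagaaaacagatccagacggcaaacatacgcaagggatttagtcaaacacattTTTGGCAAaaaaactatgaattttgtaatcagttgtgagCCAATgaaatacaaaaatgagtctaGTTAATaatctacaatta
AFP promoter: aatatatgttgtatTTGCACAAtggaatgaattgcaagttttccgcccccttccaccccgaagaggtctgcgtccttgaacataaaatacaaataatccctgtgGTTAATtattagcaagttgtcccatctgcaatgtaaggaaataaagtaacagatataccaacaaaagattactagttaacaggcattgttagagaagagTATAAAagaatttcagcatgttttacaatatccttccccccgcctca
AFM promoter: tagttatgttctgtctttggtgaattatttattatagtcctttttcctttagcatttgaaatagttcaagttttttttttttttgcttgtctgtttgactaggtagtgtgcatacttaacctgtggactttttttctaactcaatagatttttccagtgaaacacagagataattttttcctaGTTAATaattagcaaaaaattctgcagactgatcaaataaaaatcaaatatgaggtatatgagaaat
GC promoter: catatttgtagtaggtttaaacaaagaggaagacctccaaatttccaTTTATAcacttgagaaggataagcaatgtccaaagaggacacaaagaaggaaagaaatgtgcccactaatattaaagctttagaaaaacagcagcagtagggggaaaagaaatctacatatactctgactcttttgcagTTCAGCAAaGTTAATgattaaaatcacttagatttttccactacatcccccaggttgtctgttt

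GTTAAT was present in 4 of 4 promoters, against 6.26% of the 20664 promoters of the same length that could be read. Its first base lay at −18 in ALB, −146 in AFP, −67 in AFM and −55 in GC, counted from the gene start. ALB had 2 annotated starts and AFM 4, and only the outermost of each was used for these promoters. The C/EBP word was present in the promoters of ALB, AFP and GC, against 8.38% of all promoters, TATAAA in those of AFP and GC, against 10.4%, and CCAAT in that of ALB, against 32.0%. The TATAAA match began at −47 in AFP, and in GC at −203 on the opposite strand, so the GC match is not shown to be a core promoter element. The words TGTTTAC (FOXA) and CAAAGTC (HNF4) were searched for in the same way and had no match in these 4 windows. Such words are short and their presence is a description of the sequence, not of binding. G and C made up 27.6% (AFM) to 37.2% (AFP) of the bases of these 4 promoters. The shares over all promoters were not matched for base composition, and genes that arose by duplication are not independent. The counts are therefore no measure of enrichment.

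Peaks shared by both liver libraries are shown next, as 300 bases around the centre of the shared stretch, read in the direction of transcription of the gene that names them and numbered by the distance of the centre from its start. ALB +20649 (chr8:69663926-69664225) followed the end of ALB and lay in the widest shared stretch. ALB +26763 (chr8:69670040-69670339) lay in the stretch between ALB and AFP that was open in most tissues. The peaks of adipose P348, hypothalamus P350 and both spleen libraries in that stretch lay outside these 300 bases. GC +1377 (chr8:68358735-68359034) lay in an intron of GC and was shared with lung alone. Capitals mark the same words, and CAAAGTC.
ALB +20649: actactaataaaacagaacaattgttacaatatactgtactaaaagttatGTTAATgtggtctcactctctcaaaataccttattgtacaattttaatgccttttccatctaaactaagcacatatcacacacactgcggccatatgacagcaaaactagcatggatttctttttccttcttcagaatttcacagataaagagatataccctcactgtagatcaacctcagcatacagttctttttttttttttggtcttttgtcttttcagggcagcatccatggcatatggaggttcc
ALB +26763: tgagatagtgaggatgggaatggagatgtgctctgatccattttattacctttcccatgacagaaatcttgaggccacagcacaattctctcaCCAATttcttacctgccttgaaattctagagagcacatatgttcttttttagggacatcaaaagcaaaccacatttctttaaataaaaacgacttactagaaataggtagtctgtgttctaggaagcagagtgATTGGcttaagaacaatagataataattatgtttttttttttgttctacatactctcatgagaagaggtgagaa
GC +1377: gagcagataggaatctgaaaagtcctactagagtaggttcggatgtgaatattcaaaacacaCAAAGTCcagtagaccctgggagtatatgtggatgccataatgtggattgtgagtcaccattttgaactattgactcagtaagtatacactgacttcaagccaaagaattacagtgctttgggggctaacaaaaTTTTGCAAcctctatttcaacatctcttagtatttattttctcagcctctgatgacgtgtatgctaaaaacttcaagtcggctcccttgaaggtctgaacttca

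Of the 11 stretches shared by both livers, 9 had a 300-base window that touched no exon. The windows of 2 of these are not reported here, so no count of words over the windows is given. Repeats soft-masked in the assembly covered 97.7% of the window upstream of GC at −2820 and 87.0% of ALB +18573. Of the windows shown above, they covered 46.3% of ALB +20649, 33.7% of ALB +26763 and 7.33% of GC +1377. The median of all shared liver stretches genome-wide was 7.67%.

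The lists held 99960 to 217308 peaks and covered 64.1 to 156 Mb, so levels are given as peak bases in a gene's window per Mb of all peak bases of that library. The list of liver P348 covered the least, 64.1 Mb in 113682 peaks, that of liver P350 covered 87.1 Mb in 139307 peaks, and both cerebellum lists, 148 and 156 Mb, were the longest in peak number. The lists give no read depth, and the read totals in the study's supplement were not used here, so values were not adjusted for depth. The deposited q, averaged over a broad peak, was above 0.05 in 1.54% to 16.3% of the peaks of a library, and in 8.87% and 5.46% of those of liver P348 and P350. Markers of hepatocytes were read as a check of the label. The 8 hepatocyte markers summed to 550 and 375 peak bases per Mb in the liver libraries and to 132, 167 and 282 (lowest, median and highest) in the 14 others. A value of a bulk tissue cannot tell fewer cells of a type with open chromatin from weaker opening in each cell.

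ALB, which encodes the main plasma protein, had more open chromatin in liver than in any other tissue. Its window held 125 peak bases per Mb in liver P348 and 57.8 in liver P350, and 0, 11.5 and 35.1 (lowest, median and highest) in the 14 libraries of other tissues. The lower liver value therefore exceeded the highest value elsewhere, that of hypothalamus P348. Both liver libraries exceeded all 14 others for ALB alone of the 4 genes, a pattern seen in 1.18% of 19638 genes tested. The liver libraries had 11 and 6 peaks in the window, and the other libraries had 0 to 5. Undivided peak bases numbered 8042 and 5038 in liver and at most 4218 elsewhere, so the groups were also apart without the division by list length.

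The mean was 91.6 ± 47.8 peak bases per Mb in liver (SD, n = 2) and 11.8 ± 9.39 over the means of the 7 other tissues (SD, n = 7). Liver exceeded the mean of the other tissues by 3.13 (SE 0.45) on the scale of log2(peak bases per Mb + 2), with an adjusted p of 0.0132 in limma with Benjamini-Hochberg adjustment over 19638 genes, higher in 2 of 2 animals. This was the 5th highest difference of all genes tested. The median difference over all genes was 0.16 on this scale, and 93 genes were called higher in liver (0.474%) and 32 lower (0.163%), ALB and GC among the former. With the animal as a block these counts were 62 and 17. Without liver P348 the difference of ALB was 2.58 and the adjusted p 0.305, and with peaks of q under 0.0001 alone it was 3.86 and 0.0994. The call was not made in either case.

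In the order of tissue means, liver was followed by hypothalamus with 25.8 ± 13.1, cerebellum with 21.1 ± 10.5, cerebral cortex with 15.5 ± 3.74, lung with 9.62 ± 2.35, adipose with 6.90 ± 6.84, spleen with 3.83 ± 0.0496 and skeletal muscle with 0 in both animals (peak bases per Mb, SD, n = 2). Liver was apart from hypothalamus by more than their pooled SD. The steps from hypothalamus to cerebellum, from cerebellum to cerebral cortex, from lung to adipose and from adipose to spleen were within the spread of the 2 animals. In spleen and in adipose P348 the whole value came from 1 narrow peak in the stretch shared with AFP.

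**Figure D1:**
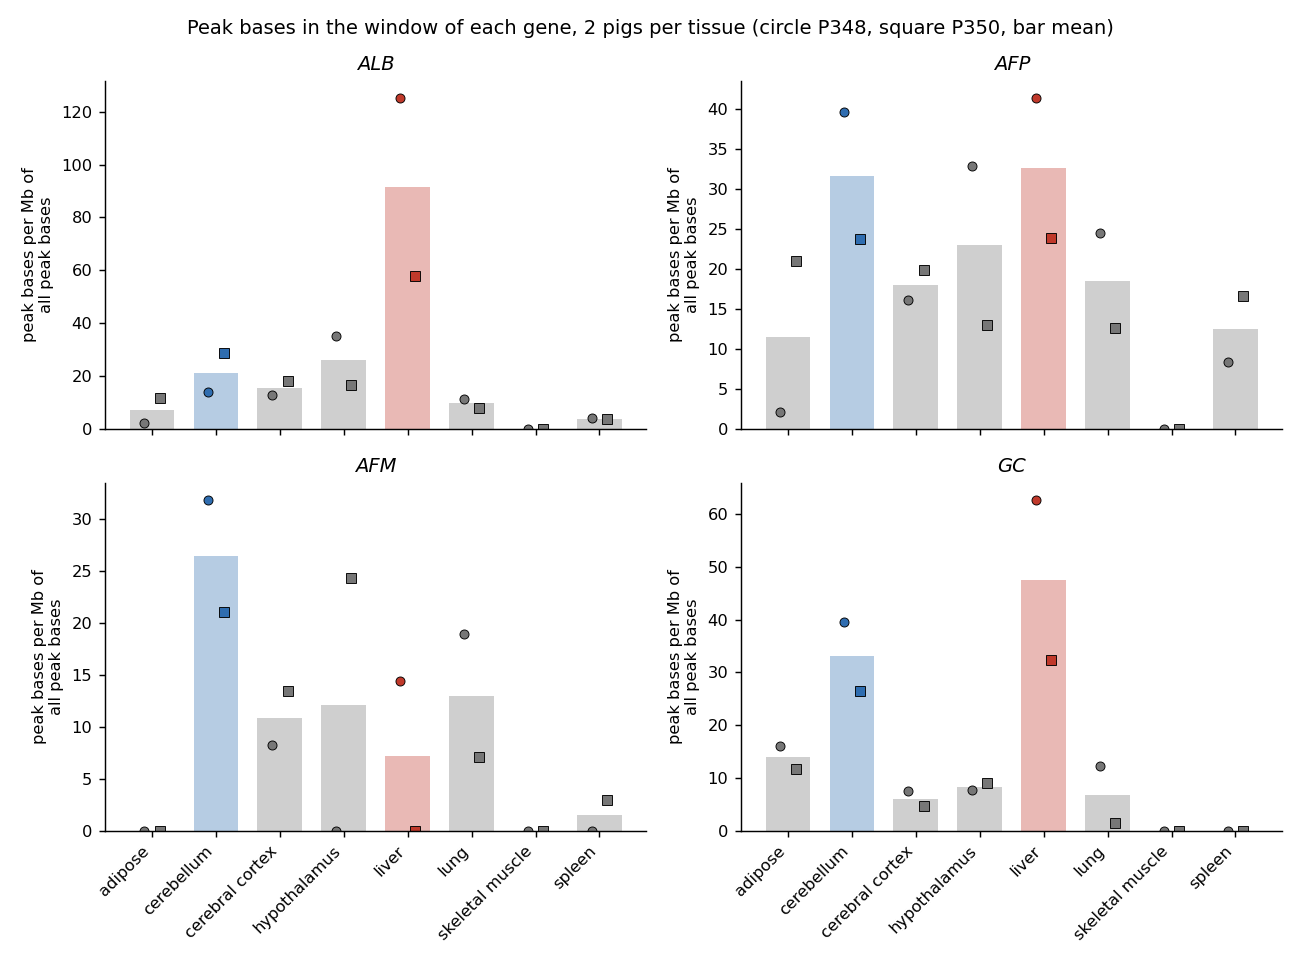
Peak bases per Mb of all peak bases (y axis, from 0) in the windows of ALB, AFP, AFM and GC for 8 tissues (x axis), with a circle for pig P348, a square for pig P350 and a bar for their mean. ALB was highest in both livers (125 and 57.8), GC in liver and cerebellum, AFM in cerebellum, and skeletal muscle was at 0 for all 4 genes.

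Within the transcribed part of ALB, peaks covered 22.2% of the bases in liver P348 and 11.8% in liver P350. In the other 14 libraries the share was 0 in 9 and at most 10.9%. Among 13471 protein-coding genes of at least 10 kb, the ALB share lay above 99.7% of genes in liver P348 and above 93.5% in liver P350, where the medians were 3.34% and 4.09%. In the ALB window, 7 of 11 liver peaks in P348 and 5 of 6 in P350 were wider than the median of their library. Their median width was 565 bp in P348 and 818 bp in P350, against library medians of 402 and 485 bp. Their median fold enrichment over local background was 3.38 and 3.25, against library medians of 3.81 and 3.10, and 8 of 11 peaks in P348 but 1 of 6 in P350 lay under the median of their library.

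The start of ALB carried a peak in 1 library only. In liver P348 a 216 bp peak (chr8:69643384-69643599, fold 3.88) covered the gene start and the GTTAAT at −18 and touched the first exon, and another 226 bp peak (chr8:69642213-69642438, fold 4.22) ended upstream of it at −989. Neither was called in liver P350 or in any other tissue. Liver P350 had no peak within 2 kb of an ALB start.

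The single liver peaks were followed along ALB from its start. An intronic peak (fold 3.04 in P348 and 3.16 in P350) was present in both livers and in no other library. The next shared peak lay over exon 11 of 15 (folds 3.39 and 3.27) and was also present in both cerebellum libraries, in cerebral cortex P350 and in lung P348. An intronic peak at ALB +18573 (folds 2.29 and 2.91) was shared with hypothalamus P350. The peak that began shortly beyond the last exon at ALB +20649, 1403 bp wide in P348 and 1371 bp in P350 (folds 3.38 and 3.37), was shared with both cerebellum libraries and hypothalamus P348. Of the livers, P348 alone had further peaks upstream at −5766 (fold 3.51), in introns 5.08 kb and 11.7 kb inside the gene (folds 2.74 and 2.21) and over exon 12 (fold 1.96), and in P350 alone 1 peak lay upstream at −9824 (fold 3.24), where bases are counted from the ALB start. The peaks seen in a single liver are single calls without a replicate.

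The widest-shared stretch of the cluster lay between ALB and AFP (chr8:69669435-69671382) and ended at −6308 from the AFP start. It was open in both animals of 7 tissues, 14 of 16 libraries, and in neither library of skeletal muscle. In liver its peak was 1792 bp wide in P348 (fold 3.97) and 1169 bp in P350 (fold 4.84).

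**Figure D2:**
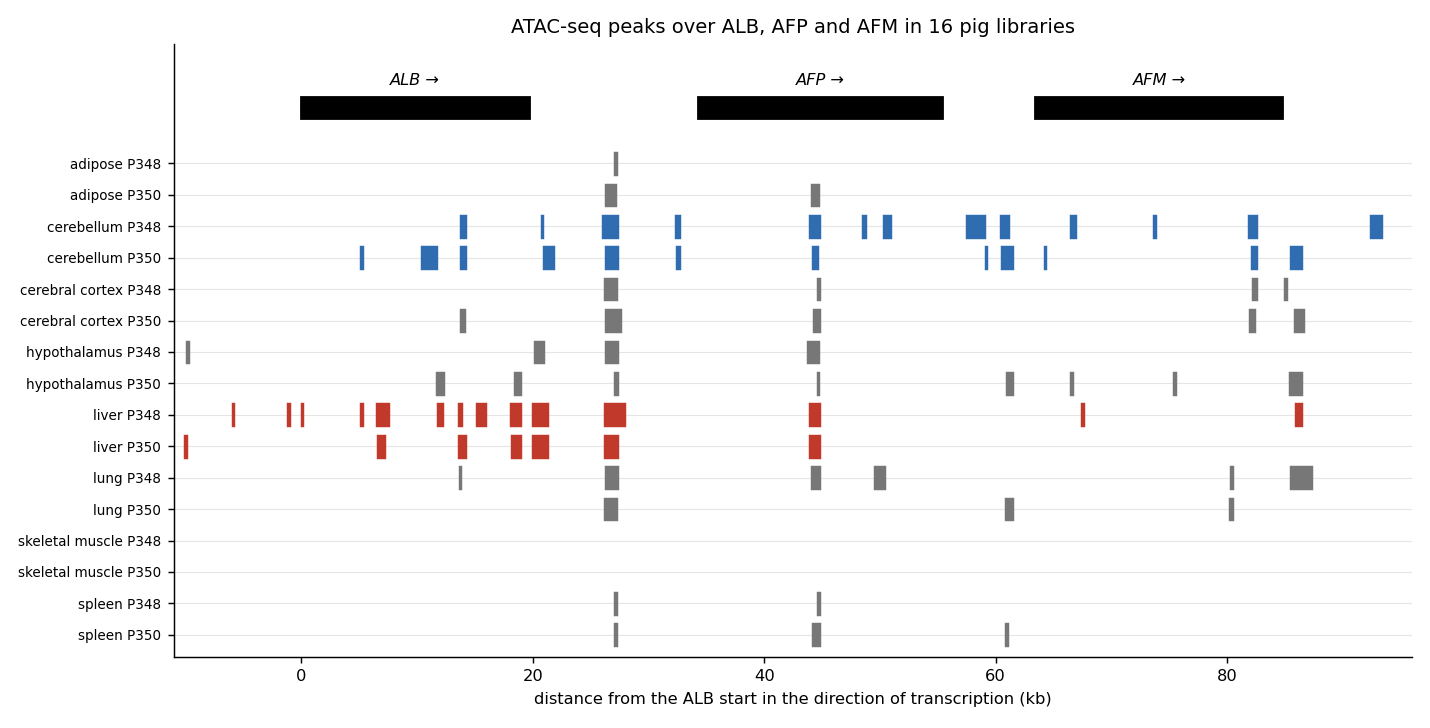
Peaks of the 16 pig libraries (rows, each block drawn to scale) against the distance from the ALB start in kb (x axis), with the spans of ALB, AFP and AFM above, liver in red, cerebellum in blue and other tissues in grey. Liver blocks are dense over ALB (11 and 6 in its window) and absent over most of AFP and AFM. In the stretch around ALB +26763 bp, 14 libraries have a block, though not all of these cover that base.

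GC, which encodes the carrier of vitamin D, was high in liver and in cerebellum. Its window held 62.8 peak bases per Mb in liver P348 and 32.3 in liver P350, and 0, 7.60 and 39.5 (lowest, median and highest) in the other 14 libraries. The value of 39.5 was that of cerebellum P348, so the groups overlapped, and 4 libraries, those of skeletal muscle and spleen, were at 0. Liver exceeded the mean of the other tissues by 2.67 (SE 0.44) on the log2 scale, with an adjusted p of 0.0216 (limma, Benjamini-Hochberg), 20th in order, and higher in 2 of 2 animals. Without liver P348 the difference was 2.21 and the adjusted p 0.364, and without liver P350 they were 3.13 and 0.0559, and GC was called in neither case. Undivided peak bases gave 2.20 and 0.0629, and a window of 2 kb gave 2.52 and 0.0615.

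The means for GC were 47.6 ± 21.5 in liver and 33.0 ± 9.16 in cerebellum, which did not differ by more than their pooled SD. Adipose followed with 13.9 ± 3.01, hypothalamus with 8.34 ± 0.862, lung with 6.83 ± 7.71 and cerebral cortex with 6.05 ± 1.99 (peak bases per Mb, SD, n = 2). The steps among hypothalamus, lung and cerebral cortex were within the spread of the animals.

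GC was the only gene of the 4 with a peak within 2 kb of its start in both liver libraries, a property of 73.6% of 20648 protein-coding genes on sequences with peaks. The peak over the GC start, which touched the first exon, was 378 bp wide in liver P348 (chr8:68359990-68360367, fold 4.35) and 303 bp in liver P350 (chr8:68360069-68360371, fold 3.54), and no other library had a peak there. It held the GTTAAT at −55 and the C/EBP word at −64 in both animals. Cerebellum P350, adipose P348 and both lung libraries also had a peak within 2 kb of the start, but none within 500 bp. The intronic peak at GC +1377 (folds 2.48 and 2.54) was shared with both lung libraries and no other, and the peak at −2820 (folds 4.81 and 4.17) with adipose P348, cerebellum P350 and lung P348.

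The highest fold of any liver peak of the cluster was 7.61, in a 436 bp peak of P348 downstream of GC, and it lay above 88.9% of the peaks of that library. In P350 the peak there was 1135 bp wide (fold 4.10). The 427 bp shared by the animals there had no peak in another tissue, although the wider peak of P350 overlapped peaks of both cerebellum libraries, hypothalamus P350 and lung P348 outside that stretch. An intronic stretch at GC +9355 (folds 2.46 and 3.17, −log10 q 1.08 and 2.35) was open in both livers, both cerebellum libraries, adipose P348, cerebral cortex P348 and hypothalamus P348. Of the livers, P348 alone had intronic peaks 5092 bp and 23189 bp inside the gene (folds 3.24 and 3.03).

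**Figure D3:**
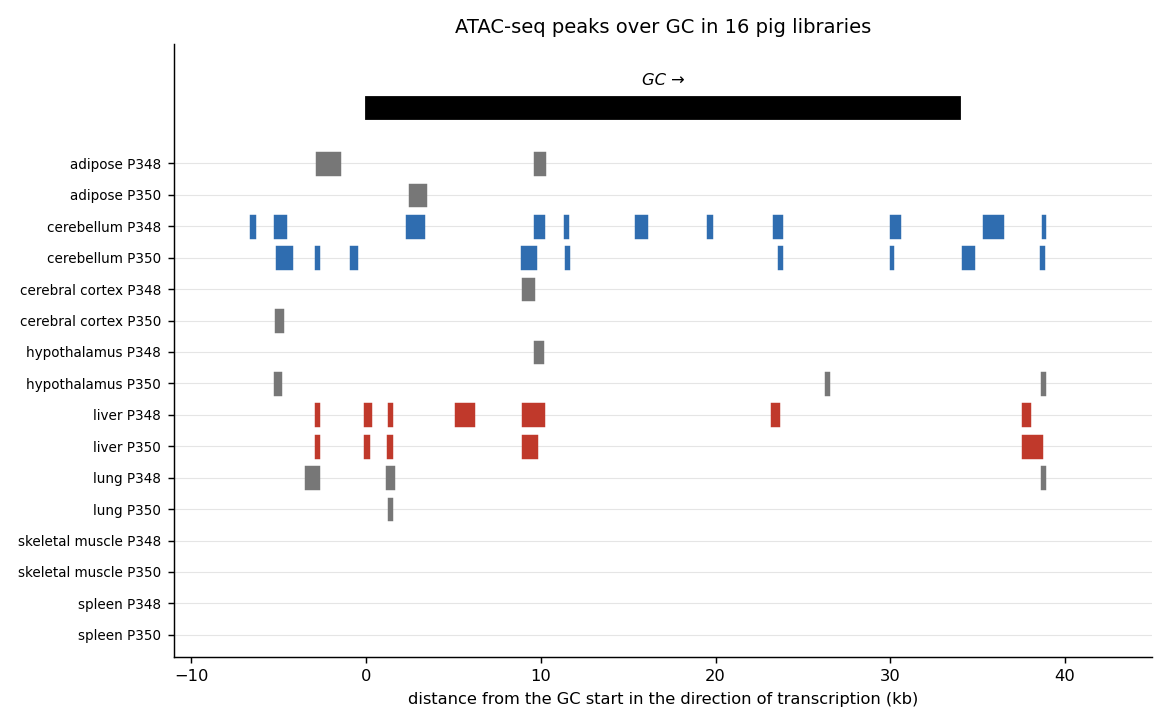
Peaks of the 16 pig libraries (rows) against the distance in kb from the GC start in the direction of transcription (x axis), with the span of GC above, liver in red, cerebellum in blue and other tissues in grey. Both livers have a block at the start, where no other library has one, cerebellum has 11 and 9 blocks in the window (gene and flanks), and skeletal muscle and spleen have none.

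AFP, the fetal albumin, was not called in liver. Its window held 41.5 peak bases per Mb in liver P348 and 23.8 in liver P350, and 0, 16.3 and 39.6 in the other 14 libraries (lowest, median and highest). The groups overlapped, and the difference of 1.32 (SE 0.53, log2 scale) had an adjusted p of 0.279 in limma. Both livers had the same 2 peaks in the window. One was the widely shared stretch between ALB and AFP, and the other an intronic peak at AFP +10081 (867 and 907 bp, folds 4.32 and 4.16) that was present in 12 of 16 libraries of 7 tissues. The AFP start had no liver peak within 2 kb. Both cerebellum libraries had one there, ending at −1544.

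The order of means for AFP was liver with 32.6 ± 12.5, cerebellum with 31.7 ± 11.3, hypothalamus with 22.9 ± 14.1, lung with 18.5 ± 8.44, cerebral cortex with 18.0 ± 2.65, spleen with 12.4 ± 5.86, adipose with 11.5 ± 13.3 and skeletal muscle with 0 (peak bases per Mb, SD, n = 2). Each step from liver down to cerebral cortex was smaller than the spread of the 2 animals.

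AFM, which encodes the vitamin E carrier, was not called in liver. Its window held 14.4 peak bases per Mb in liver P348 and 0 in liver P350, and 0, 5.00 and 31.9 in the other libraries (lowest, median and highest), of which 6 were at 0. The difference was −0.16 (SE 0.82, log2 scale, adjusted p 0.947 in limma), and its sign turned in some settings, for example to 1.36 without liver P350. The 2 liver peaks of P348 lay inside the gene, 3871 bp from the nearest AFM start (fold 2.99), and beyond its end (fold 3.05), and 0 regions of its window were open in both livers. No library had a peak within 500 bp of an AFM start. Cerebellum was highest with 26.5 ± 7.64, above lung with 13.0 ± 8.36 by more than their pooled SD, and hypothalamus followed with 12.1 ± 17.2 and cerebral cortex with 10.8 ± 3.70.

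Merging peaks of all 16 libraries that shared at least 1 bp gave 46 regions in the 4 windows. A liver peak was present in 22 of them in either animal and in 11 in both animals, 5 in the window of ALB, 2 in that of AFP (of which 1 was shared with ALB) and 5 in that of GC. Of the 11, 2 had no peak in another tissue, an ALB intron and the GC start, or 18.2%, against 5.12% of 81622 regions open in both livers genome-wide. Counted over the bases shared by both liver peaks rather than over merged regions, 3 of 11 stretches had no peak elsewhere, the third lying downstream of GC, against 6.09% of 82106. In 26 regions no tissue had both animals open, and 19 regions were seen in 1 library.

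Cerebellum, whose lists were the longest, had peaks in more regions than liver. Both cerebellum libraries were open in 14 regions, 6 of them also open in both livers, and 31 regions had a peak in at least 1 cerebellum library. Cerebellum exceeded the mean of the other tissues for GC by 2.15 (adjusted p 0.00128), for AFM by 2.45 (adjusted p 0.0182) and for AFP by 1.28 (adjusted p 0.0473) in the same limma fit, where 10% of all genes were called higher and 60% lower and the median of all genes was −0.95. ALB had a difference of 0.85 and an adjusted p of 0.106. The call of AFP was lost with the animal as a block (adjusted p 0.0574), and those of AFP and AFM without either cerebellum library, with adjusted p of 0.0938 and 0.364 for AFP and 0.0805 and 0.190 for AFM. With peaks of q under 0.0001 the difference of GC was 0.43 with an adjusted p of 0.666.

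Skeletal muscle had no peak in any of the 4 windows in either animal. The limma difference was −3.10 for ALB (adjusted p 0.000266), −3.33 for AFP (adjusted p 0.000519), −2.54 for GC (adjusted p 0.000793) and −1.90 for AFM (adjusted p 0.0788), so 3 of 4 genes were called lower, against 14.1% of all genes lower and 28.1% higher. Spleen had no peak at GC in either animal, and GC was called lower there (−2.54, adjusted p 0.00439), against 3.47% of genes lower and 12.1% higher. The call of GC in spleen was lost without either spleen library (adjusted p 0.0747 and 0.0552) and with lists of equal length (adjusted p 0.140), and in skeletal muscle that of GC was lost with lists of equal length (adjusted p 0.0652). Values for genes at 0 depend on the pseudocount and are not fold changes.

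In the other 4 tissues none of the 4 genes was called by limma. The genome-wide shares of genes called higher and lower were 1.48% and 0.82% in adipose, 0.458% and 0.107% in cerebral cortex, 1.26% and 2.09% in hypothalamus, and 0.0611% and 0.00509% in lung. Of their 16 contrasts, 2 had an unadjusted limma p under 0.05, those of ALB in hypothalamus (difference 1.14, adjusted p 0.188) and of AFM in adipose (−1.90, adjusted p 0.213).

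None of the 8 genes nearest to the cluster was called in liver. Upstream of ALB lay ANKRD17, a gene for an ankyrin repeat protein, with 54.0 and 35.1 peak bases per Mb in the livers and a difference of −0.28 (adjusted p 0.614, limma), and LOC100520317, the mitochondrial assembly factor COX18, with 0.24 (adjusted p 0.828). Downstream of AFM, LOC102166306, annotated as alpha-fetoprotein-like, held 54.3 and 28.5 in the livers and 5.08, 14.8 and 42.3 elsewhere (lowest, median and highest), a difference of 1.33 (SE 0.36, adjusted p 0.12). RASSF6, beyond it, had 0.08 (adjusted p 0.973). Around GC, DCK (deoxycytidine kinase) had −0.04, SLC4A4 (a bicarbonate transporter) −0.15, NPFFR2 (a neuropeptide receptor) −0.24 and ADAMTS3 (a procollagen protease) 0.07, with adjusted p from 0.767 to 0.955. The liver values of LOC102166306 overlapped those of the other tissues. NPFFR2 was open at a start in 12 libraries and both of its skeletal muscle libraries were at 0, as for GC.

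Other plasma proteins of hepatocytes gave a wider frame. Of a list of 32 such genes, all tested, 8 were called higher in liver, against 0.474% of all genes, and 0 lower, against 0.163%. In the list 31 had a difference above 0, as did 12800 of the 19638 genes tested. The median difference was 1.36 in the list against 0.16 over all genes. The highest differences were those of the fibrinogen chain FGA (3.10, SE 0.66, adjusted p 0.0559), APOH, a phospholipid-binding glycoprotein (2.75, adjusted p 0.0216), HRG, histidine-rich glycoprotein (2.57, adjusted p 0.0467), and TTR, the thyroxine carrier transthyretin (2.54, adjusted p 0.0216), all from limma. The lowest were those of SERPINA1, the main elastase inhibitor (−0.07), A2M, a broad protease inhibitor (0.32), AMBP, the precursor of alpha-1-microglobulin (0.53), and RBP4, the retinol carrier (0.66), none called. ALB lay above all 32 and GC between APOH and HRG. Both liver libraries exceeded all others for 14 of the 32, against 1.18% of all genes.

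Peaks at gene starts were counted in the same genes. Of the 32 genes, 31 had a peak within 2 kb of a start in both livers, FGB being the exception. Of ALB, AFP, AFM and GC, 1 of 4 had one, and of 20648 protein-coding genes 73.6% did, so the trait is common. The 15 liver transcription factors listed with them all had such a peak. Of these, NR1H4, the bile acid receptor and the only factor called, was higher in liver (1.22, adjusted p 0.0293, limma). Of the factors 0 were called lower, and the median difference was 0.98. Among all genes tested, 0.474% were called higher and 0.163% lower, and the median was 0.16. ZHX2 and ZBTB20, known repressors of AFP in the adult liver and named here after their values were seen, had −0.17 and 0.63 (adjusted p 0.683 and 0.304, limma).

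**Figure D4:**
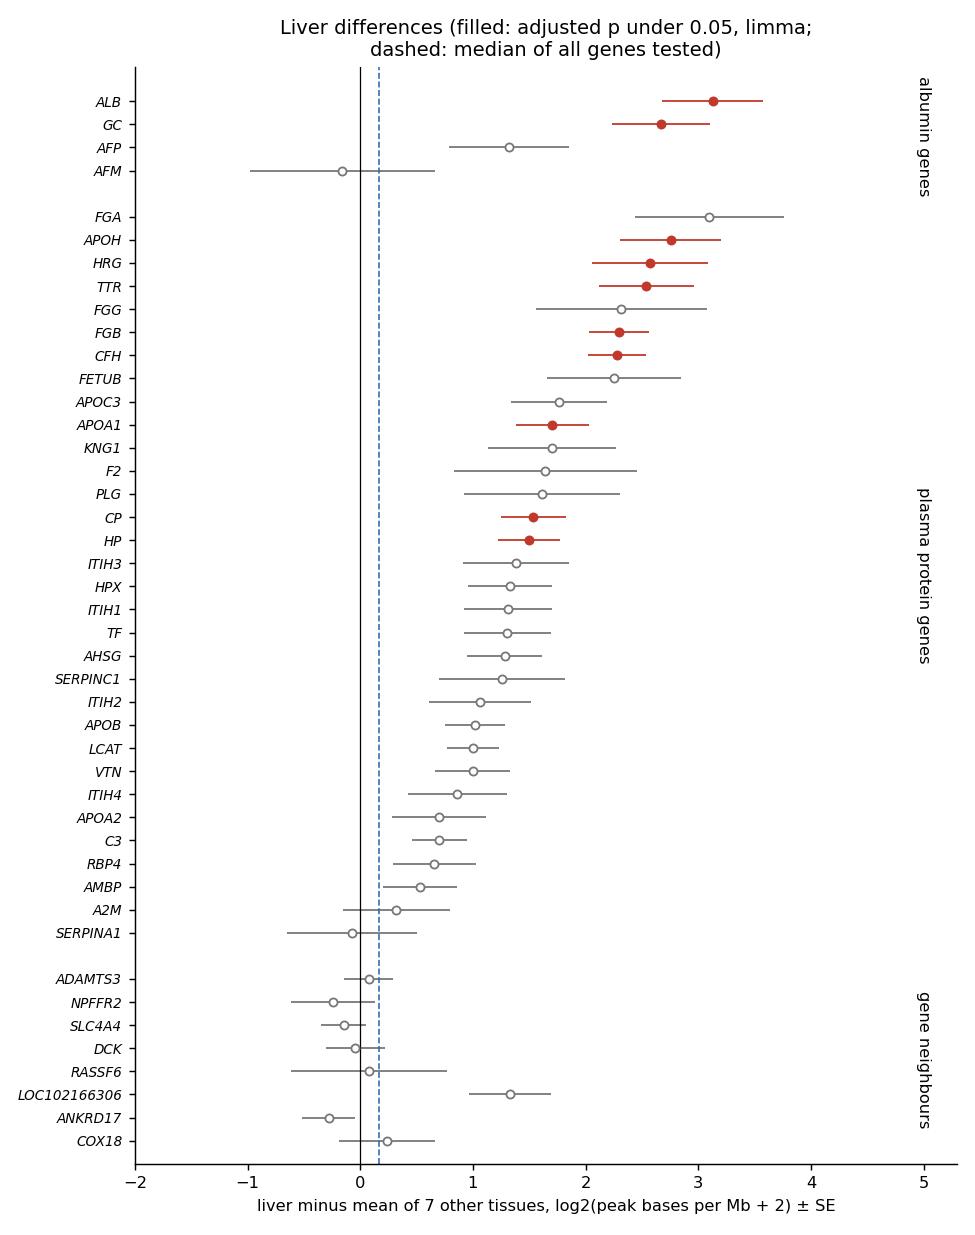
Liver minus the mean of 7 other tissues on the scale of log2(peak bases per Mb + 2) (x axis, points with SE) for the albumin genes, 32 plasma protein genes and 8 neighbouring genes (y axis), with filled red points for adjusted p under 0.05 and a dashed line at the median of all genes (0.16). ALB (3.13) lies to the right of every plasma protein gene, AFM is near 0, and of the neighbours LOC102166306 alone lies well to the right of the line.

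Markers of liver cell types were read in the same fit. Of the 8 hepatocyte markers, of which 5 were also in the lists above, 3 were called higher and the median difference was 1.81. For all genes tested, 0.474% were called higher and 0.163% lower, and the median was 0.16. At such shares, lists this short would seldom hold a call, so the absence of calls below says little. None of the 5 endothelial, 6 Kupffer cell and macrophage, 5 B and T cell, 3 tested cholangiocyte and 4 stellate cell markers was called in either direction, and their medians were 0.52, 0.42, 0.09, −0.17 and −0.09. Between the animals, the summed hepatocyte markers were 1.47 times higher in liver P348 than in P350 and ALB 2.17 times, and the part of this in the ALB difference between the animals was not tested.

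Across the 16 libraries, the genes whose log2 values were most like those of ALB were CP, the copper carrier ceruloplasmin (Pearson r = 0.86), AFP (0.86), the complement gene C6 (0.85), LOC102166306 (0.85) and PRR32 (0.85). GC was 61st with 0.77 and AFM 2035th with 0.42. The libraries share list length and tissue, AFP shares part of its window with ALB, and these values describe the 16 libraries without a test.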

How the data were processed

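ATAC-seq peak lists of 16 pig libraries were used. The submitters' processing notes name Trim Galore 0.4.5, BWA 0.7.17, SAMtools 1.10, Picard 2.18.17 and Sscrofa11.1. The study's methods state trimming, alignment, a mapping quality limit of 30 and duplicate removal with these tools for its ChIP-seq reads. The authors called broad peaks with MACS2 in each library with a stated q limit of 0.05, and the lists also hold peaks whose deposited q is above it. ATAC-specific steps such as read shifting were not given in the sources used here. The deposited columns hold a display score, fold enrichment over local background, and −log10 p and −log10 q. The deposited score was not used.

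Bases in peaks within 10 kb of each protein-coding gene (RefSeq annotation release 106) were divided by the Mb of all peak bases of the library. Values were tested as log2(value + 2), a scale that understates the change of low genes, with limma 3.58.1 in R 4.3.3 (tissue means, trend, two-sided, each tissue minus the mean of the other 7), and p-values were adjusted by Benjamini-Hochberg over 19638 genes with a peak in at least 2 libraries. All 4 albumin genes passed this filter. The fit was tested on simulated data without pairing by animal, with shifts placed only in genes of higher mean level than the 4 albumin genes. That test therefore does not cover genes as low as these 4. The files were read and figures drawn with Python 3.11.15, pandas 2.3.3, NumPy 2.4.6 and matplotlib 3.10.9. Named genes were the 4 genes, 2 neighbours on each side, the 4 highest and 4 lowest of the plasma protein list, and the 5 genes most correlated with ALB. FGB, NR1H4, ZHX2 and ZBTB20 were named outside this rule, after their values were seen. The genes and lists were chosen with earlier results of these data known, the liver signal at ALB among them. Libraries of different tissues came from the same 2 animals, which pairs them. The deviations of tissues of 1 animal had a mean correlation of 0.000456 (−0.186 to 0.138 over 28 pairs of tissues). With 2 libraries a tissue from littermates, p-values measure the spread between these animals. The sequences of 2 liver windows are not reported here.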

Additional observations from a re-analysis of the deposited data

How the results depend on the processing

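The difference of ALB in liver stayed above 0 in all 12 other settings (1.51 to 4.05) and was not called with peaks of q under 0.0001 (3.86, adjusted p 0.0994) or with 2 groups, liver against the pooled other libraries (3.13, adjusted p 1.00). With 1 library left out it ran from 2.58 (without liver P348, not called) to 3.67. GC stayed above 0 (1.16 to 3.91) and was not called with undivided peak bases (2.20), a 2 kb window (2.52) or 2 groups (2.67), and ran from 2.21 to 3.13 with 1 library left out. AFP was called in none of 12 settings (0.05 to 2.60), nor with 1 library left out (0.95 to 1.70). AFM turned above 0 with lists of equal length (0.44), a 2 kb window (0.20) and a 50 kb window (1.98), and without hypothalamus P350 (0.11), and ran from −1.68 to 1.36 (without liver P350). It could not be tested with peaks of q under 0.0001. With the animal as a replicate block, adjusted p was 0.0232 for ALB and 0.0221 for GC, and of the calls on the 4 genes in liver, cerebellum, skeletal muscle and spleen only that of AFP in cerebellum was lost.

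Genes called higher in liver, 93 in all, numbered 175 with a pseudocount of 10, 295 with q under 0.01, 996 with q under 0.0001, 218 with lists of equal length, 243 with peaks counted in place of bases, 31 with undivided bases, 34 with a 50 kb window and 1 with 2 groups, and 1 (without liver P348) to 390 (without cerebellum P350) with 1 library left out. Genes called lower, 32 in all, numbered 64, 257 and 66 with q under 0.01, q under 0.0001 and peaks counted in place of bases, 19 and 13 with 2 kb and 50 kb windows, 0 with 2 groups, 17 with the block, and 2 to 218 with 1 library left out. The median of all genes in liver was −0.18 with undivided bases.

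Regions open in both livers, 11 in all, numbered 5 with q under 0.0001, 22 when either animal sufficed, 20 with a 50 kb window, and 12 to 21 with 1 liver library left out (21 without P350). Those without a peak elsewhere, 2 of 11 in the main setting (5.12% genome-wide), were 4 of 9 with q under 0.01 (9.72%) and 4 of 5 with q under 0.0001 (13.6%). They were 1 of 12 with peaks closer than 500 bp merged (4.21%), 8 of 22 when either animal sufficed (10.1%) and 5 of 20 with a 50 kb window (5.12%). By shared bases (chosen after seeing the data) they numbered 3 of 11 (6.09%). With 1 liver library left out they were 2 of 12 without P348 (7.25%) and 8 of 21 without P350 (9.86%). The percentages are shares of all regions open in liver in the same setting. With q under 0.0001, 0 of the 4 genes kept a start peak in both livers. The cause was not tested in any of these cases. Settings for cerebellum, skeletal muscle and spleen were also added after seeing the data. ALB in cerebellum was called with undivided bases (1.52, adjusted p 0.00876), and with q under 0.0001 no call in these 3 tissues was kept for ALB, AFP or GC.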
